A study of Homo sapiens with 4 samples.

Results

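A549 is an established human line from a lung adenocarcinoma, and the comparison was between its cells taken from 3D tumor colonies grown with cancer-associated fibroblasts (CAFs) and from colonies grown without them. Of the 4 RNA libraries of the series, these are 2, chosen by their titles: the mix culture and the single culture, with 1 library each. Every gene of the deposited table with at least 1 scaled count in either library entered the description, which gave 13485 of 26255 gene symbols. A scaled count is the deposited value divided by a constant, 8.94, that is the same for all libraries and puts their mean total at 1000000. The A549 cells carried GFP and were isolated from the colonies by cell sorting in both groups, per the labels' protocols. The mix title was taken to mean the culture with CAFs, because no other culture condition is named there. What species and source the CAFs had, how long the cultures ran and how many colonies or cultures stand behind each library is not stated in the labels. The other 2 libraries of the series, a solid-type and an acinar-type area of A549 xenograft tumors cut by laser microdissection from immunodeficient mice, enter only side by side at the end.

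CAFs are the activated fibroblasts of tumor stroma. They secrete TGF-β family ligands, growth factors and matrix, and they remodel the matrix around tumor cells. In epithelial tumor cells TGF-β receptors phosphorylate SMAD2 and SMAD3, which with SMAD4 induce target genes such as SMAD7 and IL11. Growth factor receptors act through ERK on a fast layer of immediate early genes, among them FOS and EGR1. Proliferating cells switch on replication genes through E2F factors and later the mitotic genes through the MuvB-B-MYB-FOXM1 complexes. A549 cells keep parts of a secretory and liver-like expression program, including fibrinogens, complement factors and mucins.

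Most genes were close to equal in both libraries. The median log2 ratio, log2((mix + 1)/(single + 1)) in scaled counts, was 0.01, and 70.7% of the genes lay within 1.25-fold. At least 2-fold on that scale, 92 genes (0.682% of 13485) were higher and 234 (1.74%) were lower in the mix culture. Membership past 2-fold is always counted on that scale, which adds 1 to both values and so understates the ratio of low genes. Counts of list members past 2-fold are to be read beside these shares of all genes. At 1.5-fold the counts were 447 (3.31%) and 921 (6.83%), and at 4-fold 8 and 21. Because each culture has 1 library, nothing here is checked by a replicate, no p-value is printed, and each statement compares these libraries and not the conditions in general. Folds of single genes are plain ratios of scaled counts. The 95% intervals given with them are Clopper-Pearson intervals, exact for estimated fragments conditional on their sum. They cover counting error only, and since the fragments carry no molecular identifiers they may be copies of fewer molecules. Depth was about 10970000 fragments without and 12180000 with CAFs, and 3 fragments, the upper limit that a count of 0 allows, corresponded to 0.267 and 0.242 scaled counts. Of the 92 and 234 genes, 68 and 199 had whole fragments in both libraries, and the interval of each of these excluded a fold of 1. That follows from the 2-fold limit with 1 added at this depth, so it is no separate check of the calls. The other genes carry fractional values and are called fractional below where they are named.

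The 234 lower genes held more scaled counts than the 92 higher genes in both libraries. Such counts are not per length, so these are shares of fragments and not of RNA molecules. They held 24674 scaled counts without and 10288 with CAFs, 2.53% and 1.05% of the library totals. The higher genes held 3744 and 8554, or 0.384% and 0.872%. MUC5B, a gel-forming airway mucin, DMBT1, a secreted scavenger receptor protein, and FN1, the matrix protein fibronectin, made up most of the lower sum, 16099 scaled counts without and 7041 with CAFs for the 3 genes together (all fractional). Differences past 2-fold were most frequent among low genes, where counting error is largest. In the genes with a pair mean of 0.5 to 2 scaled counts 1.03% were higher and 4.48% lower, against 0.270% and 0.459% of those between 50 and 200. The 80 genes over 1000 had 1.25% and 3.75%, or 1 and 3 genes.

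**Figure D1:**
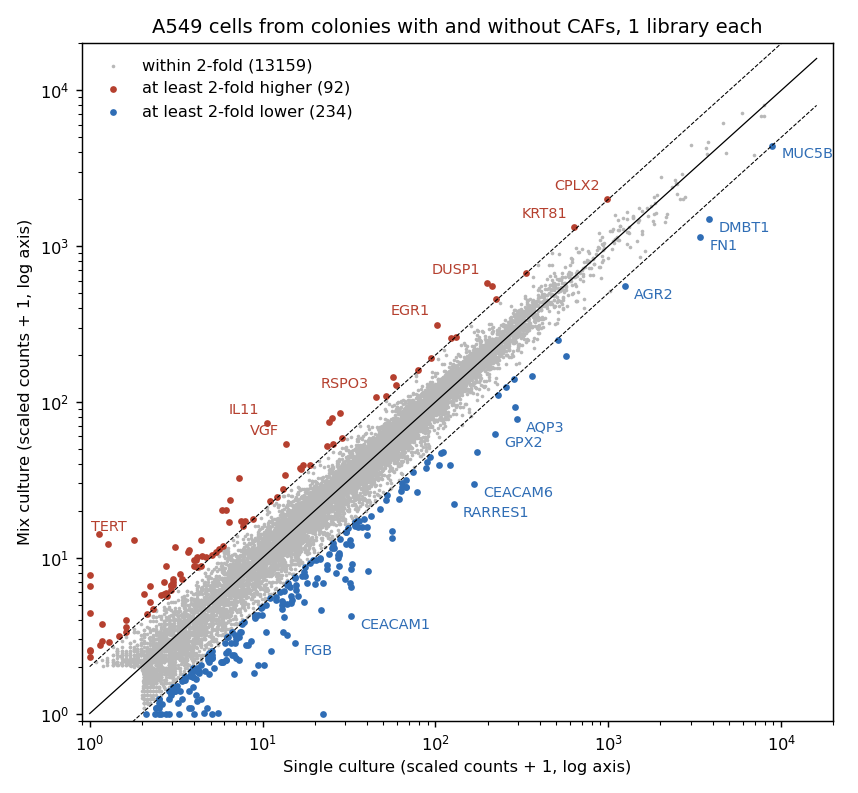
Scaled counts + 1 of 13485 genes in the single (x axis) and the mix culture (y axis), both log axes, 1 point per gene. Dashed lines mark 2-fold, and the 92 higher genes are in red and the 234 lower genes in blue.

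The 14 A549 epithelial and metabolic genes checked were expressed in both cultures, at a summed 22509 and 21056 scaled counts, and most of the defining fibroblast genes were at or near 0. The single value precedes the mix value wherever a pair is given. Of 25 fibroblast markers, 11 reached 1 scaled count in either library and none was 2-fold apart. Their summed level was 678 scaled counts without and 539 with CAFs. DCN, FAP, POSTN, DPT, MFAP5 and SFRP2, all matrix or surface genes of fibroblasts, were listed at 0 in both libraries. LUM, the proteoglycan lumican, was at 0 and 0.0805, and COL1A2, a type I collagen chain, at 0 and 0.161 scaled counts, below 3 fragments in each case. COL3A1, a type III collagen, was at 0.356 without and 0.564 with CAFs. COL1A1, the other type I collagen chain, was at 19.3 and 29.5 scaled counts, 1.53-fold higher (95% interval 1.29 to 1.82). The marker sum came mostly from genes that the culture without CAFs also expressed, S100A4 at 367 and 245, FBN1 at 81.3 and 54.1, FBLN1 at 75 and 89.4 and COL6A1 at 68.5 and 68.8. CDKN2A, which A549 has lost by deletion, was listed at 0 in both cultures. MTAP, its neighbour, known to be deleted in A549 as well, was not at 0 but at 6.04 and 7.25 scaled counts (68 and 90 fragments). A value per gene symbol cannot tell where these fragments lie or whether they come from similar sequences, so it does not test that record. None of the endothelial, leukocyte, muscle or fat and keratinocyte markers was 2-fold apart, and among the 14 A549 genes 1 was, GPX2, a glutathione peroxidase described with the lower genes. The part of fibroblast RNA in the results below was not tested beyond these levels.

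**Figure D2:**
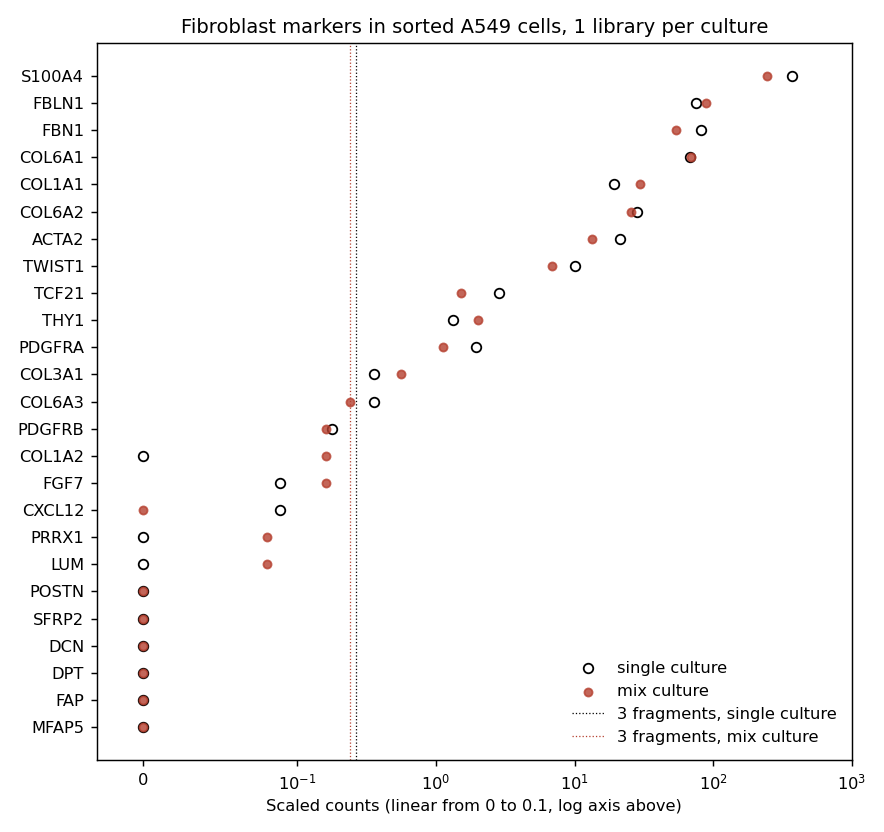
Scaled counts of the 25 fibroblast markers in the single (open circles) and mix culture (red circles), on an axis that is linear from 0 to 0.1 and logarithmic above. Dotted lines mark 3 fragments, and 6 markers are at 0 in both libraries.

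Genes of the TGF-β pathway differed unevenly. IL11, a cytokine gene that TGF-β induces, was among the largest differences, while the ligands, receptors and SMADs themselves were close to even. The SMAD target and feedback list had 46 measured genes, with 28 above 0. Past 2-fold were 7 on the higher and 4 on the lower side, where all genes had 0.682% and 1.74%. The list median was 0.17 against 0.01 for all genes (0.26 for the list on the undivided deposited values). Its lowest member is ID4, which is described with the BMP targets below. Of 32 ligand, receptor and SMAD genes, 11 were above 0, none was 2-fold apart and the median was -0.12.

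IL11 was at 9.6 scaled counts without and 72.5 with CAFs, 7.56-fold higher (6.18 to 9.32). SPHK1, the kinase that makes sphingosine 1-phosphate, was at 2.04 and 6.28, 3.07-fold higher (1.91 to 5.13). Both intervals excluded 1, which follows from the 2-fold limit and covers counting error only. FSTL3, a secreted antagonist of activin, was at 93.1 and 191 scaled counts (2.05-fold, 1.91 to 2.21). SNAI1, the transcription factor Snail, was at 4.09 and 9.42 (2.3-fold, 1.63 to 3.32). The feedback genes lay below the 2-fold limit. PMEPA1, which sequesters SMADs, was at 391 and 755 (fractional), the inhibitory SMAD gene SMAD7 at 4.44 and 8.29, and SKIL, the corepressor SnoN, at 26.5 and 42.1 scaled counts. In the other direction, CDKN1A, the CDK inhibitor p21, was at 254 and 125, and COL27A1, a fibrillar collagen, at 66.3 and 30.6 scaled counts. Among the receptors TGFBR2, the ligand-binding type II receptor, was at 645 and 442 scaled counts (1.46-fold lower, 1.41 to 1.51), and among the SMADs SMAD2 was at 147 and 232 (1.58-fold higher, 1.49 to 1.68). The ligand gene TGFB2 was at 189 and 208 (fractional).

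The promoter of IL11, the gene with the highest ratio of the SMAD target list, holds an AP-1 motif, the binding sequence of FOS-JUN dimers. Whether such dimers act on IL11 in these cultures was not tested. The sequence is the 250 bases before the RefSeq start (GRCh38.p14, chr19:55370464-55370713, minus strand, 5′ to 3′), with the motif TGANTCA in capitals, its first base 96 bases before the start.
IL11: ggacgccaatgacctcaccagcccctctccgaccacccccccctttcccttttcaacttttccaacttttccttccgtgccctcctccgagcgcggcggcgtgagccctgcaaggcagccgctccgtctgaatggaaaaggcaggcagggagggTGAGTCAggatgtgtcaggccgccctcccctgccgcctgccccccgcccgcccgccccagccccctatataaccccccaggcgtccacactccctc
Among the genes at least 2-fold higher, 7 of 59 matched promoters (11.9%) held TGANTCA on either strand, against 10 of 185 (5.41%) among the lower genes and 3.88% of 10768 promoters of all measured genes. In the SMAD target and feedback list, which holds IL11, the motif was in 1 of 32 matched promoters (3.13%). The files are on hg19 and the promoter table on GRCh38.p14, so promoters were matched by symbol, and a match is a description of letters, not of a bound site.

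Some targets of the BMP branch of the family were lower. ID genes encode dominant negative helix-loop-helix proteins and are classical BMP targets, and ID3 was at 87.6 without and 36.5 with CAFs, 2.4-fold lower (2.15 to 2.69). ID4 was at 2.22 and 0.161 scaled counts, the second value being 2 fragments (13.8-fold lower, 3.44 to 120.2), and ATOH8, another BMP target, at 7.2 and 1.77 (4.06-fold lower, 2.51 to 6.84). ID1 and ID2 were nearer to even, at 149 and 133 and at 37.3 and 26.9. The ligand gene BMP4 was at 70.9 and 46.5, and BMP7 at 2.58 and 0.725. The antagonist genes were split, with FST (follistatin) at 1.96 and 5.56 and FSTL3, given above, higher in the mix culture, and CHRD (chordin) lower, at 2.04 and 0.483. Of 24 measured genes of BMP ligands, antagonists and ID factors, 2 were past 2-fold on the higher and 5 on the lower side. All genes had 0.682% and 1.74%, and those with a pair mean of 0.5 to 2 scaled counts 1.03% and 4.48%. The list median was -0.11, which was -0.06 with a minimum of 5 scaled counts.

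YAP and TEAD targets, which respond to cell shape and matrix stiffness, leaned to the higher side. Of 20 measured targets 16 were above 0, 2 were at least 2-fold higher and none lower, and the median was 0.22, or 0.14 with members below 1 scaled count kept. The 2 are the matricellular genes CYR61, at 16.1 and 38.3 scaled counts (2.38-fold, 2.0 to 2.84), and CTGF, at 12.2 and 26.5 (2.18-fold, 1.78 to 2.68). Both are also counted in the SMAD target list. YAP1 and WWTR1, which encode the coactivators YAP and TAZ, were slightly lower, at 125 and 111 and at 381 and 339. The promoter of CTGF, named CCN2 in RefSeq, is shown because it holds the TEAD motif GGAATG 3 times in 250 bases (GRCh38.p14, chr6:131951373-131951622, minus strand), the motifs in capitals.
CTGF: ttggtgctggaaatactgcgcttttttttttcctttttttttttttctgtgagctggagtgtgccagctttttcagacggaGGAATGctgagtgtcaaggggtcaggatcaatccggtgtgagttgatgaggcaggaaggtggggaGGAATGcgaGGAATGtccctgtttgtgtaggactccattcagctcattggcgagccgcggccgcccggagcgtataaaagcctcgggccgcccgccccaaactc
On either strand the motif was in 5 of 14 matched promoters of the YAP target list (35.7%), against 9.33% for all measured genes.

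Immediate early genes were higher as a group. Of 25 measured genes 22 had a ratio above 0, 3 were at least 2-fold higher, none was 2-fold lower, and the median was 0.50. EGR1, a zinc finger factor induced by ERK signaling, was at 101 scaled counts without and 313 with CAFs, 3.09-fold higher (2.9 to 3.31). NR4A1, an orphan nuclear receptor gene, was at 23.4 and 73.7 (3.15-fold, 2.74 to 3.63). FOS was at 334 and 670.3 (2.0-fold, 1.93 to 2.08). These 3 encode transcription factors, and their dimer partners and relatives sat below the limit. JUN was at 22.9 and 42.6, FOSB at 31.5 and 58.4, and JUNB at 111 and 174 scaled counts. ZFP36, whose protein degrades AU-rich mRNAs, was at 50.5 and 101. ATF3, a stress-induced member, was near the floor and even, at 1.33 and 1.29, and BTG2, an antiproliferative p53 target, was the only member more than 1.5-fold lower, at 18.7 and 10.5.

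Genes that restrain these signals did not share the direction as a group. DUSP1, the phosphatase that inactivates p38, JNK and ERK, was at 198 and 576 (2.91-fold higher, 2.78 to 3.06), the only one of 15 ERK feedback genes past 2-fold, and 8 of that list were above and 7 below 0. DUSP4 was at 938 and 965, DUSP6, specific for ERK, at 79.5 and 102, and SPRY1 (Sprouty) at 14.4 and 7.41 scaled counts. SIK1, a kinase gene induced by cyclic AMP through CREB, was at 210.3 and 556 (2.65-fold higher, 2.52 to 2.77). SGK1, a kinase gene induced by serum and glucocorticoid, was at 12.4 and 32.9 (2.65-fold, 2.18 to 3.23), while the glucocorticoid-induced genes FKBP5 and TSC22D3 were at 55.7 and 48.6 and at 90.5 and 73.3. Of 19 glucocorticoid-induced genes measured, SGK1 and DUSP1 were the 2 past 2-fold, both higher.

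The promoters of EGR1 and DUSP1 are shown because they carry the textbook elements of this response, serum response elements in EGR1 (at 105 and 83 bases before the start) and a cyclic AMP response element, TGACGTCA, in DUSP1 (125 bases before the start). Elements are in capitals, 5′ to 3′, from RefSeq on GRCh38.p14 (EGR1, chr5:138465229-138465478, plus strand, and DUSP1, chr5:172771196-172771445, minus strand).
EGR1: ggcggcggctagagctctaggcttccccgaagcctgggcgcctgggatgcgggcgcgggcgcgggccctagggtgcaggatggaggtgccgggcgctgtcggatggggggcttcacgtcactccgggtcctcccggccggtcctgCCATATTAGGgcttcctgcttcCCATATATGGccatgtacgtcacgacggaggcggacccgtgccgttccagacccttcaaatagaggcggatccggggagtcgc
DUSP1: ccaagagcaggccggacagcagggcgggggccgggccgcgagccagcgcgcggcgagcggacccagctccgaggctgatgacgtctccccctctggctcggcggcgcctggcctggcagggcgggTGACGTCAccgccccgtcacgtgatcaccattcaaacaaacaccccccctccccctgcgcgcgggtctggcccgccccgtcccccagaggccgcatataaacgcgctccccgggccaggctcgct
A serum response element was found in 2 of 20 matched promoters of the immediate early list (10%) and in 0.938% of all measured genes, and TGACGTCA in 2 of 20 (10%) and 2.90%.

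Replication genes were uniform in direction. All 43 measured genes of origin licensing and the replication fork had a ratio above 0, 16 were at least 1.5-fold higher, none was 2-fold higher, and their median was 0.50 (range 0.12 to 0.95). Over all genes 52.0% were above 0. The genes of this list shared a small shift rather than a few large ratios, with 3.31% of all genes past 1.5-fold in the same direction. In bulk libraries a larger share of cycling cells and more RNA per cell cannot be told apart. The largest ratios were those of POLE2, a subunit of DNA polymerase epsilon, at 6.13 without and 12.8 with CAFs (2.09-fold, 1.56 to 2.81), and CDT1, the loader of the replicative helicase, at 17.4 and 34.6 (1.99-fold, 1.67 to 2.37). The helicase genes followed, with MCM6 at 63.7 and 102 (1.6-fold, 1.46 to 1.76), MCM2 at 70.6 and 109 and MCM4 at 135 and 203 scaled counts. MCM10, which helps to activate the helicase, was at 26.7 and 46.2, and CLSPN, an adaptor of the replication checkpoint, at 14.9 and 27.3. The smallest ratio was that of POLE, the catalytic subunit of polymerase epsilon, at 70.8 and 76.8.

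Most factors that control these genes were on the higher side as well. Of 22 genes of the E2F and RB axis 19 were above 0, 4 by at least 1.5-fold, and the median was 0.37. E2F1, an activating E2F, was at 34.1 and 55.2 (1.62-fold, 1.42 to 1.84), MYBL2, the B-MYB factor, at 55.3 and 92.8 (1.68-fold, 1.52 to 1.85), and UHRF1, which recruits DNMT1 to replicated DNA, at 29.1 and 49.8. Of the pocket protein genes, RBL1 was at 24.2 and 31.4, RB1 at 65.9 and 64.8 and RBL2 at 88 and 80.7 (fractional). CCND1, encoding cyclin D1, was even, at 179.8 and 185 scaled counts (1.03-fold, 0.968 to 1.09), while CDK2 was at 40.0 and 65.8 (1.64-fold higher, 1.46 to 1.85). Of 15 measured G1 cyclins and CDK inhibitors 11 were below 0, 1 was at least 2-fold lower, and the median was -0.25. CDKN1A was 2.04-fold lower (1.92 to 2.17), CDKN1C, the inhibitor p57, was at 4.98 and 2.58, and CCNG2, a cyclin of quiescent cells, at 33.6 and 17.1. Of 34 p53 targets 26 were below 0, 2 were at least 2-fold lower (CDKN1A and SPATA18) and the median was -0.24. MDM2, the ligase that degrades p53, was at 107 and 77.9, and TP53INP1, a stress-induced p53 cofactor, at 28.4 and 13.8 scaled counts, whereas GDF15 and BAX were near even, at 33.7 and 33.9 and at 122 and 117.

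Mitotic genes were higher by a little less. Of 46 spindle and kinetochore genes 45 were above 0 and 7 at least 1.5-fold higher, with a median of 0.41, and of 25 genes of mitotic entry and exit 24 were above 0, with a median of 0.35. PLK1, a mitotic kinase, was at 94.8 without and 154 with CAFs (1.63-fold, 1.51 to 1.76). CDC20, the activator of the anaphase-promoting complex, was at 57.9 and 89.2 (1.54-fold, 1.4 to 1.7), and CENPA, the centromeric histone, at 15.2 and 27.1. MKI67, the proliferation marker Ki-67, was at 332 and 394 (1.19-fold, 1.14 to 1.24). Several lists that accompany growth had the same lean. Homologous recombination and Fanconi genes had 30 of 32 above 0 (median 0.38). Nucleotide synthesis had 26 of 28 above 0 (median 0.29), with RRM2, a ribonucleotide reductase subunit, at 100.4 and 151. Ribosome biogenesis had 32 of 33 above 0 (median 0.37), with the nucleolar protein gene NCL at 673 and 914, and cytosolic ribosomal proteins had 45 of 47 above 0 (median 0.16). None of the genes of these 6 lists was 2-fold apart in either direction. The list of replication-dependent histones did not share the lean, with 5 of 12 measured genes above and 7 below 0 (median -0.03). HIST1H1C was at 58.4 and 36.2, and HIST3H2A at 2.13 and 3.06.

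The promoters of MCM6, CDC20 and PLK1 are shown because they carry the motifs that were frequent in these lists. Capitals mark the E2F motif TTTGGCGC and the CCAAT box (as ATTGG on the other strand) in MCM6, and the CHR element TTTGAA (or TTCAAA) and CCAAT in CDC20 and PLK1. All are the 250 bases before the RefSeq start on GRCh38.p14, 5′ to 3′ (MCM6, chr2:135876444-135876693, minus strand, CDC20, chr1:43358731-43358980, plus strand, and PLK1, chr16:23678639-23678888, plus strand).
MCM6: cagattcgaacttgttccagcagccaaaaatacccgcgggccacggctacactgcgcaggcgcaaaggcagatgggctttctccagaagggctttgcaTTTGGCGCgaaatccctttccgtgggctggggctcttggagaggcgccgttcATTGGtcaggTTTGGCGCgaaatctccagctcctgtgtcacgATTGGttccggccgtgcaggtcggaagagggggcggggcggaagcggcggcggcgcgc
CDC20: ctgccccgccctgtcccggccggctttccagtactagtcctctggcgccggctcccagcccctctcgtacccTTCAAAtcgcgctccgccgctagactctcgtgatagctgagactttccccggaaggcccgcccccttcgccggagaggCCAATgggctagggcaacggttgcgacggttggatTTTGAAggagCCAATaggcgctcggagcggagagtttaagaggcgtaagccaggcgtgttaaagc
PLK1: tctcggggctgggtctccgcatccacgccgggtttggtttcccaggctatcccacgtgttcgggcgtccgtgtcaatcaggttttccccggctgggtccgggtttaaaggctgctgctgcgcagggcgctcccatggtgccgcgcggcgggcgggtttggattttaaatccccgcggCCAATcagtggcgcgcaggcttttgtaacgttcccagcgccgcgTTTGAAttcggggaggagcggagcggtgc
The E2F motifs TTTGGCGC or TTTCCCGC, searched on both strands, were in 10 of 38 matched promoters of the licensing list (26.3%) and in 3.11% of all measured genes. TTTGAA was in 18 of 38 (47.4%) of the spindle list and 11 of 20 (55.0%) of the entry and exit list, against none of 38 in the licensing list and 8.22% of all measured genes. CCAAT was in 71.1%, 80.0% and 55.3% of the same 3 lists and in 34.9% of all. Among the genes at least 2-fold higher none of 59 promoters held the E2F motifs.

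**Figure D3:**
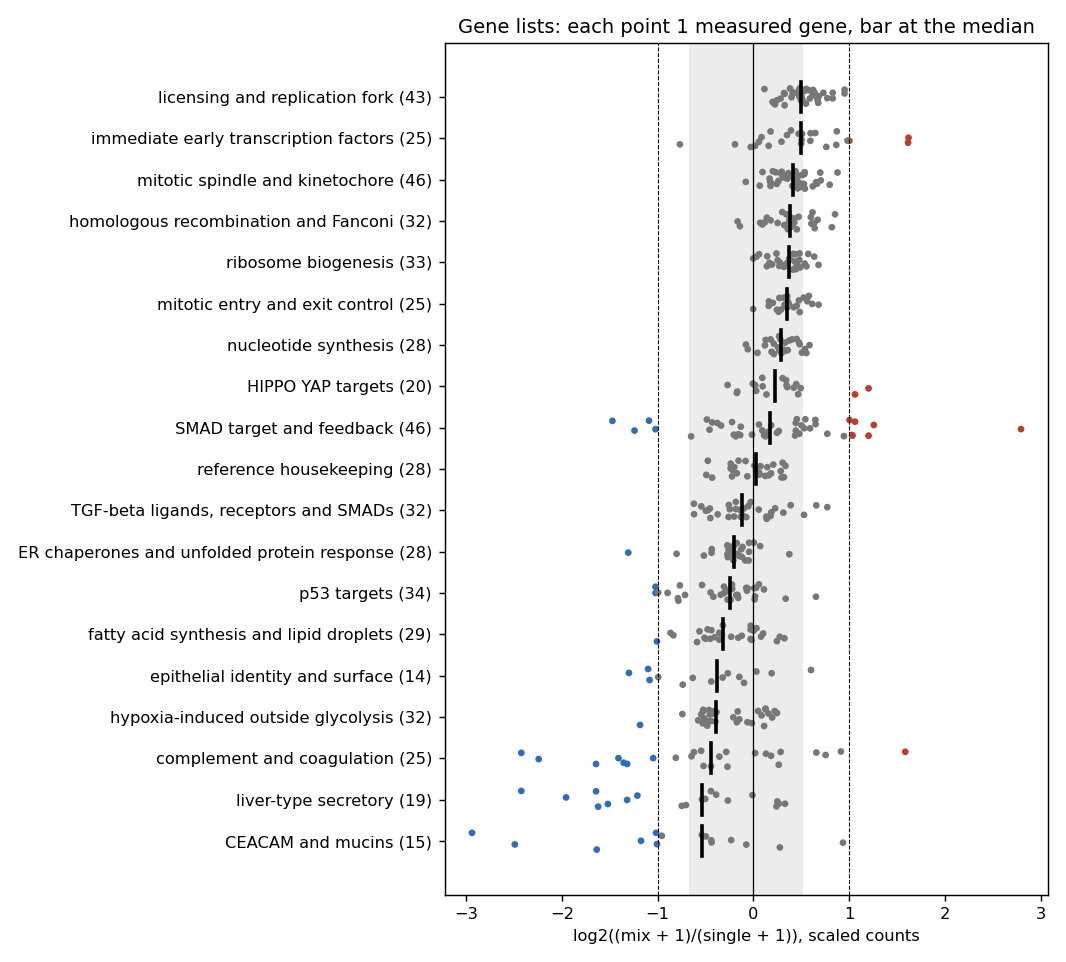
Log2 ratios, log2((mix + 1)/(single + 1)) in scaled counts, of the measured members of 19 gene lists, 1 point per gene, with the number of genes in parentheses. Black bars are medians, the grey band holds the middle 90% of all genes (-0.67 to 0.50), dashed lines mark 2-fold, and all 43 licensing genes lie to the right of 0.

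Secreted signals and single genes outside these groups held several of the largest ratios. TERT, the catalytic subunit of telomerase, was at 0.80 scaled counts without and 11.9 with CAFs, 14.9-fold higher (7.64 to 33.2), and it was listed at 0 in both tumor libraries. The other genes of telomerase and the telomere cap were within 2-fold, DKC1 being at 122 and 158. VGF, a neurotrophin-induced secreted peptide precursor, was at 12.6 and 52.7 (4.17-fold, 3.47 to 5.04). IGF2, an insulin-like growth factor, was at 5.51 and 22.4 (4.06-fold, 3.07 to 5.44), while its imprinted neighbour H19 was at 8.0 and 6.2. RSPO3, a secreted enhancer of Wnt signaling, was at 44.2 and 106 (2.41-fold, 2.17 to 2.68), and SFRP1, a secreted Wnt antagonist, at 78.7 and 160.1 (2.03-fold, 1.88 to 2.21). Wnt ligands, receptors and feedback genes had no common direction, with 17 of 30 measured genes above 0 and a median of 0.03. Past 2-fold were 1 higher (SFRP1) and 2 lower, where all genes had 0.682% and 1.74%. WNT4 was at 5.87 and 0.805 and the feedback gene AXIN2 at 41.4 and 28.7, while the receptor gene FZD8 was at 8.89 and 14.8. WISP1, a matricellular relative of CTGF, was at 2.13 and 10.8 (5.06-fold higher, 3.26 to 8.17). EREG, an EGF receptor ligand, was below 2-fold, at 24.4 and 46.9. EPAS1, which encodes HIF-2α, was at 222 and 457 (2.06-fold, 1.96 to 2.16).

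Few genes of plasminogen activation were measured. Of 7 genes 6 were above 0 and 2 at least 2-fold higher, with a median of 0.63, which was 0.11 when members below 1 scaled count were kept. PLAU, the urokinase gene, was at 50.7 and 108 scaled counts (fractional), and its receptor gene PLAUR at 72.7 and 113 (1.55-fold, 1.42 to 1.69). TFPI2, a secreted protease inhibitor, was at 27.2 and 83.7 (3.08-fold, 2.71 to 3.51). The protease-activated receptor genes F2R and F2RL1, which are neighbours in the genome, were at 62.5 and 99.1 and at 166 and 280.3 scaled counts.

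Matrix genes had no common direction. Of 34 matrix genes outside the collagens and laminins 14 were above 0, 2 were at least 2-fold higher and 3 lower (median -0.16). FN1 was at 3394 without and 1136 with CAFs (2.99-fold lower, fractional). Higher were SMOC1, a basement membrane calcium-binding protein gene, at 58.4 and 128 (2.2-fold, 2.0 to 2.41), and EFEMP1, a fibulin, at 15.5 and 36.4 (2.35-fold, 1.97 to 2.82). VCAN, the proteoglycan versican, was at 75.9 and 146, and COL5A1, a fibrillar collagen, at 176 and 285. Among the integrins the collagen receptor chains ITGA10 and ITGA11 were lower, at 19.1 and 5.8 and at 5.15 and 1.21, and TNS1, the focal adhesion protein tensin, was higher, at 24.7 and 52.7.

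Keratin genes differed by member. Along the type II keratin cluster on chromosome 12, the neighbours KRT80, KRT7, KRT86 and KRT81 were all at least 1.5-fold higher, which made them 1 of 11 runs of 3 or more adjacent measured protein-coding genes with such a common direction. KRT81, a hair-type keratin, was at 632 and 1333 (2.11-fold, 2.05 to 2.17), KRT80 at 17.8 and 38.3 (2.16-fold, 1.82 to 2.56), KRT7 at 473 and 899, and KRT86 at 11.4 and 20.8. KRT81 and KRT86 are near-identical in parts, so fragments could be split between them. The simple-epithelial pair KRT8 and KRT18 was even, at 2451 and 2543 and at 1554 and 1671 (both fractional). KRT19, of type I, was lower, at 33.4 and 15.1 (2.21-fold, 1.85 to 2.64).

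**Figure D4:**
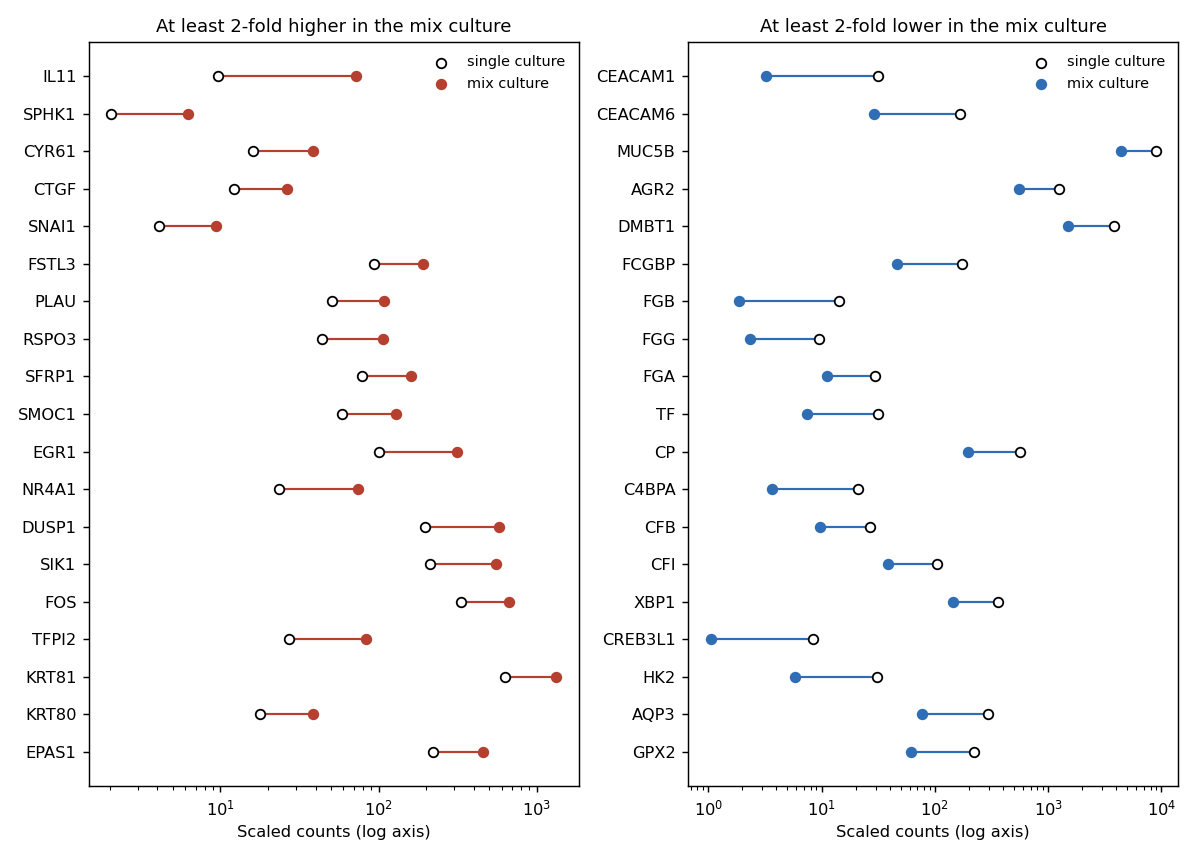
Scaled counts (log axis) of 19 genes at least 2-fold higher (left) and 19 at least 2-fold lower (right) in the mix culture, chosen among the genes described. Open circles are the single and filled circles the mix culture, with 1 library each and no error bars.

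On the lower side were many genes of mucus, cell surface and secretion. Of 15 measured genes of the CEACAM and mucin list, which also holds AGR2, 13 were below 0 and 6 at least 2-fold lower. The list median was -0.54, and 1.74% of all genes were 2-fold lower. CEACAM1, a cell adhesion receptor, was at 31.4 without and 3.22 with CAFs, 9.74-fold lower (7.01 to 13.9). CEACAM6, a lipid-anchored relative, was at 166 and 28.7 (5.79-fold, 5.17 to 6.5). Both are surface proteins of epithelial cells, and the next genes act in mucus. MUC5B was at 8878 and 4415 (fractional), its relative MUC5AC at 544 and 401, and AGR2, the disulfide isomerase needed for mucin folding, at 1245 and 551 (2.26-fold, 2.19 to 2.33). FCGBP, a mucus-binding protein, was at 174 and 46.5 (3.74-fold, 3.4 to 4.11), and DMBT1 at 3826 and 1489 (fractional). MUC12 was the exception among the mucins, at 0.533 and 1.93.

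Liver-type secretory genes were lower with them. Of 19 measured genes 15 were below 0 and 7 at least 2-fold lower (1.74% of all genes), with a median of -0.54. The 3 fibrinogen chain genes lie next to each other on chromosome 4, and each was lower. FGB was at 14.3 and 1.85 scaled counts (7.73-fold, 4.97 to 12.5), FGG at 9.42 and 2.33 (4.03-fold, 2.65 to 6.31), and FGA at 29.4 and 11.2 (2.63-fold, 2.15 to 3.23). Iron and copper carriers belonged to the same list, with TF, transferrin, at 31.6 and 7.41 (4.27-fold, 3.39 to 5.43) and CP, ceruloplasmin, at 567 and 197 (fractional). LCN2, the siderophore-binding lipocalin, was at 9.15 and 1.05 (8.75-fold, 4.89 to 17). APOE, an apolipoprotein, was not lower, at 11.6 and 13.9. Among the transcription factors of this lineage HNF4G was at 4.09 and 1.29, and HNF4A went the other way, at 12.2 and 20.8 (1.71-fold higher, 1.38 to 2.11).

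Several complement components and regulators were lower. Of 25 measured complement and coagulation genes 7 were at least 2-fold lower and 1 (TFPI2) higher, where all genes had 1.74% and 0.682%. The list median was -0.44, and the fibrinogens are counted here too. CFI, the protease that inactivates C3b, was at 104 and 38.6 (2.7-fold lower, 2.43 to 3.01), and the regulator gene C4BPA at 20.9 and 3.62 (5.76-fold, 4.18 to 8.12). CFB, a component of the alternative pathway convertase, was at 26.5 and 9.74, and C3 itself at 1626 and 927 (fractional). THBD, the thrombin receptor thrombomodulin, was at 13.5 and 26.3 (1.95-fold higher, 1.6 to 2.38).

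The machinery of the secretory pathway was lower by less. Of 28 genes of ER chaperones and the unfolded protein response 25 were below 0 and 1 was at least 2-fold lower, with a median of -0.20. That gene was XBP1, the factor that expands secretory capacity, at 363 and 146 (2.48-fold, 2.35 to 2.63). The kinase and RNase that splices XBP1, encoded by ERN1, was at 37 and 25.5, and the target DNAJB9 at 51.7 and 29.2. The chaperone HSPA5 (BiP) was near even, at 1156 and 1090.0 (fractional). CREB3L1, an ER-anchored transcription factor of secretory cells, was at 8.44 and 1.05 (8.07-fold lower, 4.5 to 15.7), and CREB3L2, its relative, at 152 and 197.

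Metabolic genes were lower in selected steps. HK2, a hexokinase, was at 30.9 and 5.88 (5.26-fold lower, 4.08 to 6.87), ALDOC, an aldolase, at 229 and 110.1 (2.08-fold, 1.95 to 2.22), and the glucose transporter gene SLC2A12 at 38.9 and 13. Of 27 measured genes of glycolysis and glucose transport 16 were below 0 and 3 at least 2-fold lower (1.74% of all genes), with a median of -0.18. By less than 2-fold, GPI was lower at 2147 and 1543, and PGK1 at 2695 and 1998 (fractional). PFKP, the highest ratio of the list, was at 427 and 559, and LDHA at 2678 and 2901 (fractional). Hypoxia-induced genes outside glycolysis had 23 of 32 below 0 and a median of -0.39, with NDRG1 at 372 and 222, while VEGFA was at 129 and 144. In fatty acid synthesis 22 of 29 genes were below 0 (median -0.32, or -0.20 over whole-fragment genes). SCD, the stearoyl-CoA desaturase, was at 6951 and 3814 (fractional), and MLXIPL, the glucose-sensing factor ChREBP, was the only member past 2-fold, at 17.7 and 8.29. GPX2 was at 221 and 61.1 (3.61-fold lower, 3.33 to 3.92), although of the 40 NRF2 targets that include it 20 were above and 20 below 0. RARRES1, a retinoic acid-responsive gene, was at 127 and 21.1 (6.0-fold, 5.26 to 6.88), and CYP3A5, a drug-metabolizing P450, at 12.9 and 2.17. AQP3, a water and glycerol channel, was at 295 and 76.7 (3.85-fold, 3.58 to 4.14). None of the 37 TCA cycle and respiration genes was 1.5-fold apart (median 0.02).

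Single signaling genes with large ratios were also on the lower side. ADCY5, an adenylyl cyclase, was at 54.7 and 12.4 (4.42-fold, 3.69 to 5.3), AGTR1, the angiotensin II receptor, at 54.9 and 13.9 (3.94-fold, 3.33 to 4.69), and RGS2, which shuts off G protein signals, at 287 and 91.8 (3.13-fold, 2.92 to 3.35). These 3 genes were chosen by the size of their ratio and form no list.

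Epithelial identity genes were lower in part. Of 14 measured genes 11 were below 0 and 3 at least 2-fold lower (1.74% of all genes), with a median of -0.38. That median was -0.24 with members below 1 scaled count kept and -0.68 on the undivided values. EHF, an epithelial ETS factor, was at 62.9 and 29.1 (2.16-fold, 1.9 to 2.46), its relative ELF3 at 141 and 70.4, and LSR, a tricellular junction protein, at 24.6 and 10.9 (2.25-fold, 1.82 to 2.78). CDH1, encoding E-cadherin, was at 201 and 119.8 (1.67-fold, 1.57 to 1.79). EPCAM, an epithelial adhesion gene, was low and even, at 2.31 and 2.09. SOX2, a progenitor factor of the airway, was at 14.6 and 5.23 (2.79-fold lower, 2.08 to 3.77), and SOX21 at 16.6 and 6.68. Mesenchymal genes had no shift as a group, with 11 of 23 measured genes above and 12 below 0. Past 2-fold were 2 higher and 1 lower, where all genes had 0.682% and 1.74%. VIM, vimentin, was higher, at 886 and 1216 (fractional), and CDH2, N-cadherin, at 56.9 and 67.6. On the lower side, FN1 had the lowest ratio of the list, at 3394 and 1136 (fractional). TWIST1, a transcription factor gene, was 1.45-fold lower (1.09 to 1.94).

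Genes of antigen presentation and the interferon response were lower by small amounts. Of 28 HLA and presentation genes 21 were below 0, none 2-fold apart (median -0.29), and HLA-B was at 38.8 and 19.1, and B2M, the light chain of class I molecules, at 449 and 319. HLA genes share sequence, so their fragments may be split between them. MICB, a ligand of the NKG2D receptor of killer cells, was on the higher side, at 7.38 and 11.4. Of 33 interferon-stimulated genes 24 were below 0 and 4 at least 2-fold lower (median -0.18), against 1.74% of all genes. Among the 4 were IFI6 at 26.2 and 9.02 and IFITM1 at 5.33 and 1.53, while OAS3 was at 86.9 and 114.

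Some of these calls depend on how fragments were divided between overlapping annotations. Of 62 readthrough symbols measured with both partner genes, 22 were at least 2-fold apart (7 higher and 15 lower), whereas the sum of each symbol with its 2 partners was 2-fold apart for none of these 22. PLSCR3 illustrates it: its value was 6.35 and 31.4, the readthrough TMEM256-PLSCR3 was at 21.3 and 0, and the sum with TMEM256 was 90.0 and 93.2 scaled counts. Readthrough symbols and PLSCR3 are therefore not counted as differences of a single gene, and the counts of 92 and 234 include them. Among noncoding genes MALAT1, a nuclear long noncoding RNA, was at 283 and 139 (2.03-fold lower, 1.92 to 2.16). Gene span, the length from start to end in the annotation, moved with the ratio. The median was 0.07 in the fifth of genes with the shortest span and -0.06 in the fifth with the longest, where the percent of genes above 0 was 59.6 and 41.4. The part of this in the list medians was not tested.

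Between the tumor libraries the lower genes leaned the same way, while the higher genes were close to all genes in direction. The 2 pairs share no library, and cells cut from tissue by laser are not the same preparation as sorted cells. Some fibroblast markers at or near 0 in the cultures were present in the tumors. MFAP5 was at 225 in the solid and 563 in the acinar tumor, and LUM at 19.6 and 55.4. Others were not higher in the acinar tumor, with COL1A1 at 32.3 and 30.7 and FBLN1 at 27.4 and 11.2. The part of stromal RNA in the tumor values was not tested. Of the 92 genes higher in the mix culture 74 were measured in the tumors, and 41 of these (55.4%) were above 0 there. The share above 0 was 51.3% over all 12903 genes measured in both pairs. Of the 74 genes, 7 were at least 2-fold higher in the acinar than in the solid tumor, and 7 at least 2-fold lower. The first 7 are 7.61% of all 92, unmeasured genes included, and 3.95% of 177 such tumor genes. PLSCR3 is among these 7, and the readthrough symbol SERF2-C15ORF63 is among the 7 lower. Of all 12903 genes measured in both pairs 1.37% were 2-fold higher and 1.88% lower between the tumors. Of the 234 lower genes 195 were measured, and 64 of these (32.8%) were above 0 in the tumors. At least 2-fold lower there too were 38 of the 195, and 7 were at least 2-fold higher. The 38 are 16.2% of all 234, unmeasured genes included, and 15.7% of 242 such tumor genes. Among the genes higher in the mix culture, IL11 was at 2.1 in the solid and 14.1 in the acinar tumor, CTGF at 27.5 and 101, and SPHK1 at 9.09 and 30.4. The immediate early list had 18 of 25 genes above 0 in the tumors (median 0.24), and its 3 genes past 2-fold in culture did not go one way there. NR4A1 was at 118 in the solid and 233 in the acinar tumor, whereas EGR1 and FOS were lower in the latter, with EGR1 at 20.6 and 7.29 and FOS at 108 and 29 in the same order. The fibrinogens had the same direction in both pairs, FGB being at 605 and 157, FGA at 1128 and 308, and so did MUC5B at 6966 and 2993 and AGTR1 at 20.7 and 3.72. SOX2 went the other way in the tumors, at 0.699 and 2.79, and CEACAM6 was far more abundant in both tumors, at 8586 and 11712 scaled counts, than in either culture. As lists, replication genes had a median of 0.50 in the cultures and 0.09 in the tumors, cytosolic ribosomal proteins 0.16 and -0.38, and cholesterol synthesis genes -0.18 and 0.92. For liver-type secretory genes the medians were -0.54 and -0.99, and for SMAD targets 0.17 and 0.41.

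**Figure D5:**
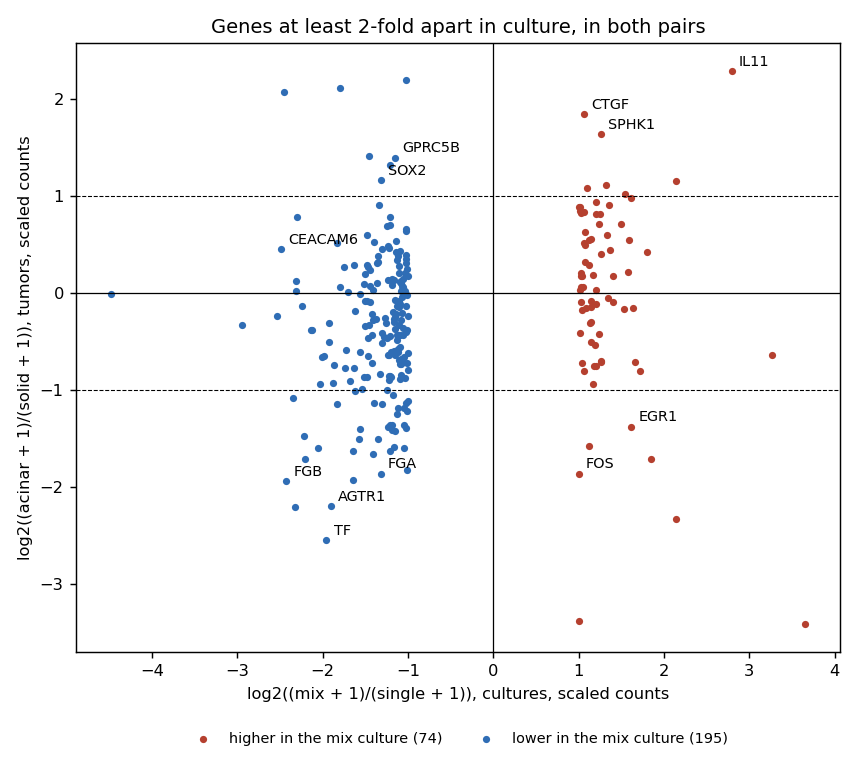
Log2 ratios of scaled counts + 1 for genes at least 2-fold apart between the cultures and measured in the tumors, with the mix over single culture on the x axis and the acinar over solid tumor on the y axis. Dashed lines mark 2-fold between the tumors, and IL11 lies at the upper right while FGB and TF lie at the lower left.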

How the data were processed

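RNA was measured in 4 A549 libraries, 1 per group, prepared with a TruSeq RNA kit per the labels' protocols. Tools named in the submitters' processing notes are Cuffdiff 2.2.1, SAMtools 1.0, Bowtie2 2.2.3 and TopHat2 2.0.13, with the build hg19. Their roles and order, the gene annotation and whether counting used strand are not stated there. What the authors deposited is 1 table of a signal per gene symbol. Its low values are multiples of a step that is constant within a library, as fragment counts divided by a size factor give, and about 90% of the values were whole within 0.05 fragment. How the other values came to be fractional is not stated, and they carry no interval.

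The deposited values were divided by 8.94 for all libraries, and genes with at least 1 scaled count in either culture were kept. Ratios are log2((mix + 1)/(single + 1)), with a pseudocount of 1, and 2-fold on that scale was the limit. Scaled counts are not per length, so levels were not ranked between genes. Intervals at 95% come from the exact conditional binomial distribution of estimated fragments. The work used Python 3.11.15, pandas 2.3.3, NumPy 2.4.6, SciPy 1.17.1 and matplotlib 3.10.9, and the steps were tested on simulated data. Promoters were matched by symbol to the RefSeq table on GRCh38.p14, first listed start per gene, and no file coordinates were used. Alternatives were other pseudocounts, filters and scalings.

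The members and the 78 gene lists were chosen with earlier results of these data known. Named genes are the 30 highest and 30 lowest ratios among genes at 5 or more scaled counts, the 15 with the most fragments per direction past 2-fold, up to 6 members of each list past 2-fold with its 3 highest and 3 lowest, genes at 0 in 1 library, a set of key genes, and genes past 2-fold in both pairs. Outside that rule, and chosen after their values were seen, are AXIN2, BAX, COL5A1, DKC1, DUSP4, EPCAM, F2R, FKBP5, FOSB, GDF15, HSPA5, ID1, ID2, JUN, JUNB, KRT18, KRT8, KRT86, LDHA, MCM10, MCM2, MCM4, MCM6, MDM2, MUC5AC, NCL, PLAUR, PLK1, PMEPA1, RBL1, SKIL, TGFB2, TMEM256, TMEM256-PLSCR3, VEGFA and ZFP36. Some genes are not reported here.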

Additional observations from a re-analysis of the deposited data

How the results depend on the processing

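With 1 library per culture, a value carries no spread between replicates, and no paired analysis was possible because each group has a single library and no replicate number. The counts of genes at least 2-fold higher and lower, 92 and 234, became 192 and 522 when 0.1 was added in place of 1, 33 and 73 when 5 was added, and 604 and 1171 on the deposited values without division by the constant, where low genes enter. Scaling each library to the same total gave 89 and 247, centring on the median 87 and 246, a minimum of 5 scaled counts 72 and 157, and whole-fragment genes alone 68 and 199, with higher genes at 25.5% to 34.0% of those past 2-fold throughout. The median changed sign in at least 1 setting for 9 of 77 lists, of which the keratins had the largest main median, 0.053, against -0.0072 with no filter. Depth limits low genes: 3 fragments correspond to 0.267 and 0.242 scaled counts, so a gene listed at 0 can be at those levels.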

Other observations

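Actin and contractile genes were mostly on the higher side, with 30 of 39 measured genes above 0, none past 2-fold and a median of 0.22. TAGLN2, an actin-binding protein of the calponin family, was at 367 scaled counts without and 631 with CAFs, and PDLIM7, an adaptor at actin filaments, at 29.3 and 50.5. ACTA2, the smooth muscle actin that marks activated fibroblasts, was lower, at 21.4 and 13.3 (fractional). Splicing factors had 29 of 33 above 0 (median 0.22), with SNRPB, a core protein of the spliceosome, at 398 and 540.2. Genes of the ATF4 and amino acid response had 19 of 30 above 0 (median 0.28), with PHGDH, the first enzyme of serine synthesis, at 21.6 and 37, and TRIB3, an ATF4 target, at 207 and 177.

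Against 1.74% and 0.682% of all genes, ion channel and pump genes had 4 of 28 at least 2-fold lower and none higher (median -0.19). Beside AQP3, these were CACNA1D, an L-type calcium channel, at 32 and 8.05, KCNK5, a potassium leak channel, at 12 and 3.7, and SCNN1A, the epithelial sodium channel subunit alpha, at 33.1 and 14.9. Fatty acid oxidation and peroxisome genes had 20 of 24 below 0 (median -0.17), with PPARGC1A, a coactivator of mitochondrial genes, at 31.6 and 17.6. NPC1, the lysosomal cholesterol exporter, was the only one of 32 lysosome and autophagy genes past 2-fold, at 122 and 258 (fractional), while 22 of the list were below 0. TNFRSF12A, the TWEAK receptor, was at 75.8 and 149.8, and the ligand gene TNFSF9 at 33.6 and 17.2 scaled counts.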
